A study of Mus musculus with 25 samples.

Results

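Whether the loss of p53 and the loss of Rb add up in the liver 1 day after a carcinogen was asked with 19 of the 25 arrays of the series, those of mice given diethylnitrosamine (DEN). The arrays were chosen by their labels: 5 of mice without both genes (DKO), 5 without p53 (p53KO), 4 without Rb (RbKO) and 5 with both genes (WT). For each gene, DKO minus p53KO minus RbKO plus WT was taken on the log2 scale and is called the additivity contrast. It is 0 where the effect of losing both genes equals the sum of the single effects, so that their fold changes multiply. It is equally the effect of Rb loss without p53 minus the effect of Rb loss with p53.

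In the knockout mice the albumin promoter drove Cre recombinase, to delete the loxP-flanked Rb1 or p53 gene, or both, in hepatocytes. Cells that do not express Cre keep the genes, and how complete the deletion was is not measured here. All groups share the strain label FVB;129. The DEN animals received 20 mg/kg in a single intraperitoneal injection at 14 days of age, and the livers were studied 24 h later. The 3 untreated DKO and 3 untreated WT arrays are given as levels only, and their treatment label reads none while the series text speaks of saline. Whether WT animals carried Cre or a loxP allele, the sexes, and whether replicates were separate animals are not given in the labels, so the p-values reflect sample-to-sample spread that may be technical.

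Rb binds E2F transcription factors and holds back the genes of DNA replication and mitosis. DNA damage activates p53, which induces genes of arrest, repair and death, and part of that arrest works by keeping Rb active. Hepatocytes convert DEN into an agent that alkylates DNA, and liver cells of a young mouse still divide, so both proteins bear on the choice between arrest and division.

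The promoters of the genes with the clearest contrasts were searched for a pair of short motifs, since E2F and the CCAAT-binding factor NF-Y act at cell cycle promoters. The windows are RefSeq's on GRCm38.p6, from 250 bases before to 50 after each gene's start, and 10 of the 11 genes called below had a window, Rmi1 with 2 starts. The E2F motif was read as TTTCCCGC, TTTGGCGC, TTTCGCGC or TTTGCCGC and the CCAAT box as CCAAT, each on both strands. The E2F letters occurred in 2.26% of all 32851 windows, in 3.41% of the 15776 windows of genes tested and in 2 of the 11 windows of called genes. CCAAT occurred in 37.4% of all windows, in 36.7% of those of genes tested and in 9 of the 11. Of the lists described below, the E2F letters stood in 10 of 28 windows of E2F and DNA replication genes, 2 of 28 of mitotic genes and 1 of 28 of p53 targets, and CCAAT in 19, 20 and 17 of them. Shown are Snx7 (chr3:117868887-117869186, minus strand) and Mns1 (chr9:72438279-72438578, plus strand), whose calls rest least on single arrays, and Ltn1 (chr16:87432557-87432856, minus strand) and the second start of Rmi1 (chr13:58402347-58402646, plus strand), which hold the E2F letters. Motif letters are in capitals.
Snx7: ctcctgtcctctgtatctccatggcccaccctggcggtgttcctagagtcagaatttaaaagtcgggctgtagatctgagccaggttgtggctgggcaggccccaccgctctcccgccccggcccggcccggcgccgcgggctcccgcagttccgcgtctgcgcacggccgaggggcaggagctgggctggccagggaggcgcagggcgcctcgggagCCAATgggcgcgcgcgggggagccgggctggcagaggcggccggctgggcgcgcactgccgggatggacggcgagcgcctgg
Mns1: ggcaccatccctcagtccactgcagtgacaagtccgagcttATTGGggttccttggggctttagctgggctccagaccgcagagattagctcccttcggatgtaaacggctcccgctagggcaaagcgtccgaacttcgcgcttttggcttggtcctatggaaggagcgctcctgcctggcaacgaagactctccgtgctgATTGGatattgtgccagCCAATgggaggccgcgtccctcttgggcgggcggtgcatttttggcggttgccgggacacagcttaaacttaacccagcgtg
Ltn1: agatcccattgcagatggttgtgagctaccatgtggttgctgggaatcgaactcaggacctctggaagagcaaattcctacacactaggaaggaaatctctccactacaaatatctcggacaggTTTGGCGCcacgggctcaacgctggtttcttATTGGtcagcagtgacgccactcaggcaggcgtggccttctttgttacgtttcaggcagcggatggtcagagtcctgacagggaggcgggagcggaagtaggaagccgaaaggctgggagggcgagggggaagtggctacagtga
Rmi1: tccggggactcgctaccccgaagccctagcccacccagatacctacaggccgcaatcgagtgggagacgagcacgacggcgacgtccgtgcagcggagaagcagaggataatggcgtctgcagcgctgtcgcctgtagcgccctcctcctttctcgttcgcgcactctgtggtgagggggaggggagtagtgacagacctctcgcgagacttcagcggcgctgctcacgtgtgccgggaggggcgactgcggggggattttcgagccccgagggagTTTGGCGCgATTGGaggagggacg
The matches describe letters in these windows, and binding was not measured.

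The array names carry dates that place the arrays in 3 sets, and what was done on those dates is not given. Set 1 holds 11 of the DEN arrays (3 DKO, 2 p53KO, 3 RbKO and 3 WT), set 2 holds 3 (RbKO replicate 4 and WT replicates 4 and 5) and set 3 holds 5 (DKO replicates 4 and 5 and p53KO replicates 3 to 5). On the leading principal component (30.1% of the variance) the arrays of set 2 lay between 29.4 and 59.3, against -15.6 to -1.76 on the other 16, so set 2 stood apart. The model therefore held a term for the set, and the contrast was also fitted within set 1, which alone has all 4 genotypes. Sets 2 and 3 give a value that shares no array with set 1, DKO minus p53KO within set 3 less RbKO minus WT within set 2, and it rests on 1 RbKO array. Pairs of DEN arrays correlated at 0.910 to 0.991 over the genes tested. The 8 hepatocyte markers tested had mean log2 signals between 11.3 and 11.7 on every DEN array. The number of arrays limits the precision of every value.

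Rb1 gave no clear check of the labels of the DEN arrays. Its log2 signal was 5.18, 5.57, 5.51, 5.82 and 5.35 in DKO and 5.56, 5.76, 5.93, 5.91 and 5.68 in p53KO. It was 5.55, 5.64, 5.79 and 6.28 in RbKO and 6.02, 5.90, 5.82, 5.97 and 5.04 in WT. The ranges of the 4 genotypes overlapped. In set 1 every DKO and RbKO array lay below every WT array, but so did the p53KO arrays. Without DEN, Rb1 had 5.02, 5.02 and 4.76 in DKO, all below the 5.34, 5.30 and 5.76 in WT. The contrast of Rb1 was -0.31 (SE 0.25, limma adjusted p = 0.587), and 0.02 in set 1. The probe set may lie outside the deleted part, which makes it no check. The p53 transcript was not analysed here.

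Few genes passed the test of the contrast. Among 15951 genes, limma gave 11 with an adjusted p (Benjamini-Hochberg) under 0.05, or 0.069%, and such genes are referred to as called, with 2 above 0 and 9 below. The median contrast was 0.01, and 49.3% of genes lay below 0. The 95% interval lay wholly within 1 log2 unit of 0 for 14493 genes (90.9%), and the contrast itself passed 1 log2 unit for 120 genes. The median distance from the contrast to the end of its interval was 0.40 log2 units. At an unadjusted p under 0.05 there were 1593 genes below 0 (9.99%) and 980 above 0 (6.14%), and these shares are the background for the gene lists. Together they were 2573 genes (16.1%), a larger share than that threshold gives if every contrast is 0. The low number of calls therefore does not show that the other genes were additive.

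The 9 genes called below 0 had a common shape. Their fitted single effects were positive for both p53KO and RbKO, while the fitted DKO mean stayed within 1.5-fold of WT. With that bound of 1.5-fold, 4 of the 11 called genes (Ltn1, Mns1, Pus3 and Rpp30) passed it only in p53KO, 2 (Cd36 and Pdk4) only in RbKO, 2 (Rmi1 and Snx7) in both, and 3 (B4galnt1, Eif3m and Trim12a) in neither. Only B4galnt1 and Trim12a had a fitted DKO minus WT difference outside the bound, at 0.67 and 1.41. The plain group means of B4galnt1, without the set term, were close, at 5.17 in DKO and 5.06 in WT. These effects share arrays with the contrast and describe it, with no test of their own.

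Snx7, a sorting nexin of endosomal traffic, had the smallest p. Log2 signals of its arrays were 7.03, 6.97, 7.11, 6.76 and 6.43 in DKO and 7.72, 7.54, 7.78, 7.78 and 7.81 in p53KO. They were 7.53, 7.50, 8.05 and 7.54 in RbKO and 7.35, 7.22, 6.76, 7.03 and 6.53 in WT. Every single-knockout array lay above every DKO and every WT array, while DKO and WT overlapped. The DKO minus WT difference of Snx7 was -0.17, against 1.37 for the sum of the single effects, and the contrast was -1.53 (SE 0.22, limma adjusted p = 0.0081). It was -1.18 (adjusted p = 0.0734) in set 1 and -1.96 (adjusted p = 0.0052) in sets 2 and 3. The call held without each of the 19 arrays in turn, with adjusted p up to 0.0471. Without DEN, Snx7 had 6.47, 6.62 and 6.92 in DKO and 7.11, 7.07 and 6.47 in WT, all below the single-knockout arrays.

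Mns1 encodes a structural protein of motile cilia and sperm flagella. Signals on the log2 scale were 4.65, 4.69, 4.81, 4.63 and 4.03 in DKO and 5.48, 5.17, 5.07, 5.83 and 5.44 in p53KO. They were 5.06, 5.31, 5.35 and 4.68 in RbKO and 4.54, 4.65, 4.59, 4.20 and 4.54 in WT. All p53KO arrays were above all DKO and WT arrays, and RbKO replicate 4 was the only RbKO array within the DKO range. The contrast of Mns1 was -1.40 (SE 0.22, limma adjusted p = 0.0199), with -1.25 (adjusted p = 0.0244) in set 1 and -1.42 (adjusted p = 0.0589) in sets 2 and 3. The call ended without DKO replicate 5, p53KO replicate 1, RbKO replicate 2 or RbKO replicate 3, with limma adjusted p up to 0.0601. Untreated levels of Mns1 ran from 4.32 to 4.66 in DKO and from 3.90 to 5.28 in WT. The highest untreated WT array thus lay within the range of the single-knockout arrays.

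Rmi1 belongs to the complex of the Bloom helicase and a topoisomerase that takes apart DNA strands joined in recombination. Log2 signals were 6.62, 6.39, 6.62, 6.82 and 6.41 in DKO and 7.03, 7.05, 6.98, 6.88 and 6.76 in p53KO. They were 6.80, 6.94, 6.73 and 6.81 in RbKO and 6.49, 6.46, 6.32, 5.84 and 5.54 in WT. Every single-knockout array lay above every WT array, and DKO replicate 4 was the only DKO array within the single-knockout range. The contrast of Rmi1 was -1.002 (SE 0.19, limma adjusted p = 0.0458), with -0.90 (adjusted p = 0.0485) in set 1 and -1.39 (adjusted p = 0.022) in sets 2 and 3. Of the 9 genes below 0, Rmi1 and Mns1 were also called in set 1.

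Ltn1, Pus3, Rpp30 and Eif3m, like Snx7, Mns1 and Rmi1, had their larger fitted single effect in p53KO. Ltn1, the ubiquitin ligase that marks unfinished proteins on stalled ribosomes, had log2 signals of 7.34, 7.19, 7.31, 7.43 and 7.07 in DKO and 7.92, 7.84, 8.27, 8.06 and 8.01 in p53KO. They were 7.54, 7.96, 7.52 and 8.80 in RbKO and 7.53, 7.06, 7.07, 7.81 and 8.64 in WT. All p53KO arrays were above all DKO arrays, and the highest RbKO and WT values were those of set 2. The contrast of Ltn1 was -1.23 (SE 0.21, limma adjusted p = 0.0341). Pus3, which modifies uridines in tRNA, had 5.59, 5.89, 5.70, 5.58 and 5.27 in DKO and 6.34, 6.50, 6.21, 6.01 and 5.95 in p53KO. Its signals were 5.61, 5.78, 5.83 and 6.48 in RbKO and 5.80, 5.32, 5.25, 5.41 and 5.10 in WT. All p53KO arrays were above all DKO and WT arrays, and the contrast of Pus3 was -1.24 (SE 0.22, adjusted p = 0.0341).

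Rpp30, a protein subunit of RNase P, which trims tRNA precursors, had log2 signals of 6.61, 6.21, 6.70, 6.13 and 6.28 in DKO and 7.18, 7.15, 6.98, 6.86 and 6.72 in p53KO. They were 6.53, 6.79, 6.69 and 6.71 in RbKO and 6.64, 6.36, 6.10, 5.64 and 6.22 in WT. The p53KO arrays were clear of DKO and WT, and the RbKO arrays overlapped with both. The contrast of Rpp30 was -1.10 (SE 0.20, limma adjusted p = 0.0392). Eif3m, a subunit of translation initiation factor eIF3, had 9.89, 9.57, 9.76, 9.48 and 9.57 in DKO and 10.14, 10.26, 10.35, 10.06 and 10.02 in p53KO. Its signals were 9.93, 9.99, 9.96 and 9.45 in RbKO and 9.85, 9.77, 9.53, 9.23 and 9.04 in WT. The p53KO arrays were above those of all 3 other genotypes, and the contrast of Eif3m was -0.81 (SE 0.15, adjusted p = 0.0472).

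Cd36 and Pdk4 had their larger fitted single effect in RbKO. Cd36, which takes up fatty acids, had log2 signals of 6.83, 7.01, 7.08, 6.81 and 7.13 in DKO and 7.35, 7.44, 7.14, 7.21 and 7.39 in p53KO. They were 7.83, 8.03, 7.78 and 7.21 in RbKO and 6.89, 7.71, 6.89, 6.49 and 5.92 in WT. All single-knockout arrays were above all DKO arrays, and WT overlapped with every other genotype. The contrast of Cd36 was -1.15 (SE 0.22, limma adjusted p = 0.0472). Pdk4, the kinase that shuts off pyruvate dehydrogenase when fat is burned, had 5.89, 6.13, 6.20, 6.26 and 6.30 in DKO and 6.59, 6.68, 7.07, 7.12 and 6.90 in p53KO. Its signals were 6.83, 6.77, 6.94 and 7.81 in RbKO and 6.64, 6.62, 6.74, 6.47 and 6.07 in WT. DKO was below every single-knockout array, and WT replicate 5 was the only WT array within the DKO range. The contrast of Pdk4 was -1.25 (SE 0.24, adjusted p = 0.0472), with -0.74 in set 1 and -2.29 in sets 2 and 3, a difference between sets that was itself called (limma adjusted p = 0.0048).

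B4galnt1 and Trim12a were called above 0. B4galnt1, which makes the gangliosides GM2 and GD2, had log2 signals of 5.33, 5.36, 5.18, 4.59 and 5.39 in DKO and 4.05, 3.98, 3.90, 4.29 and 3.97 in p53KO. They were 4.09, 3.98, 3.91 and 5.36 in RbKO and 4.12, 4.28, 5.34, 5.65 and 5.91 in WT. All p53KO arrays were low, all DKO arrays were above them, and both low and high arrays occurred among RbKO and among WT. The contrast of B4galnt1 was 1.64 (SE 0.27, limma adjusted p = 0.0227), and 1.86 (adjusted p = 0.0485) in set 1. Without DEN, B4galnt1 had 6.05, 5.89 and 5.81 in DKO and 4.33, 4.16 and 5.67 in WT.

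Trim12a is a tripartite-motif gene related to Trim5, a restriction factor of retroviruses. Its log2 signal was 4.81, 4.52, 4.50, 4.88 and 4.51 in DKO and 2.72, 2.75, 2.40, 3.12 and 2.56 in p53KO. It was 2.62, 2.92, 3.18 and 2.63 in RbKO and 2.56, 2.68, 4.65, 2.54 and 2.60 in WT. Every DKO array was high, every single-knockout array was low, and WT replicate 3 was the only WT array at the DKO level. The contrast of Trim12a was 2.19 (SE 0.39, limma adjusted p = 0.0352), and 2.27 (adjusted p = 0.1) in set 1. Its mean over all 25 arrays, 3.37, was just above the cutoff of the filter on dim genes, log2 3.33. All single-knockout arrays, and all DEN WT arrays but replicate 3, were below that cutoff. Trim12a thus passed the filter only through its high arrays, and a filter at the 40th percentile left it out. Without DEN, Trim12a had 3.98, 4.68 and 4.07 in DKO and 2.68, 2.67 and 2.98 in WT, again with DKO high.

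Trim30d, chosen after its values were seen, lies on chromosome 7 like Trim12a, with 10 genes between them in the RefSeq order. The log2 signals were 6.08, 5.26, 5.67, 6.47 and 5.36 in DKO and 3.15, 3.51, 4.04, 4.66 and 4.60 in p53KO. They were 4.08, 3.92, 4.12 and 3.92 in RbKO and 3.52, 3.40, 5.39, 3.71 and 3.63 in WT. As for Trim12a, every DKO array was above every single-knockout array, and WT replicate 3 was the only WT array within the DKO range. The contrast of Trim30d was 1.88 (SE 0.43, limma adjusted p = 0.0803). Whether probes of related Trim genes share signal was not tested.

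**Figure D1:**
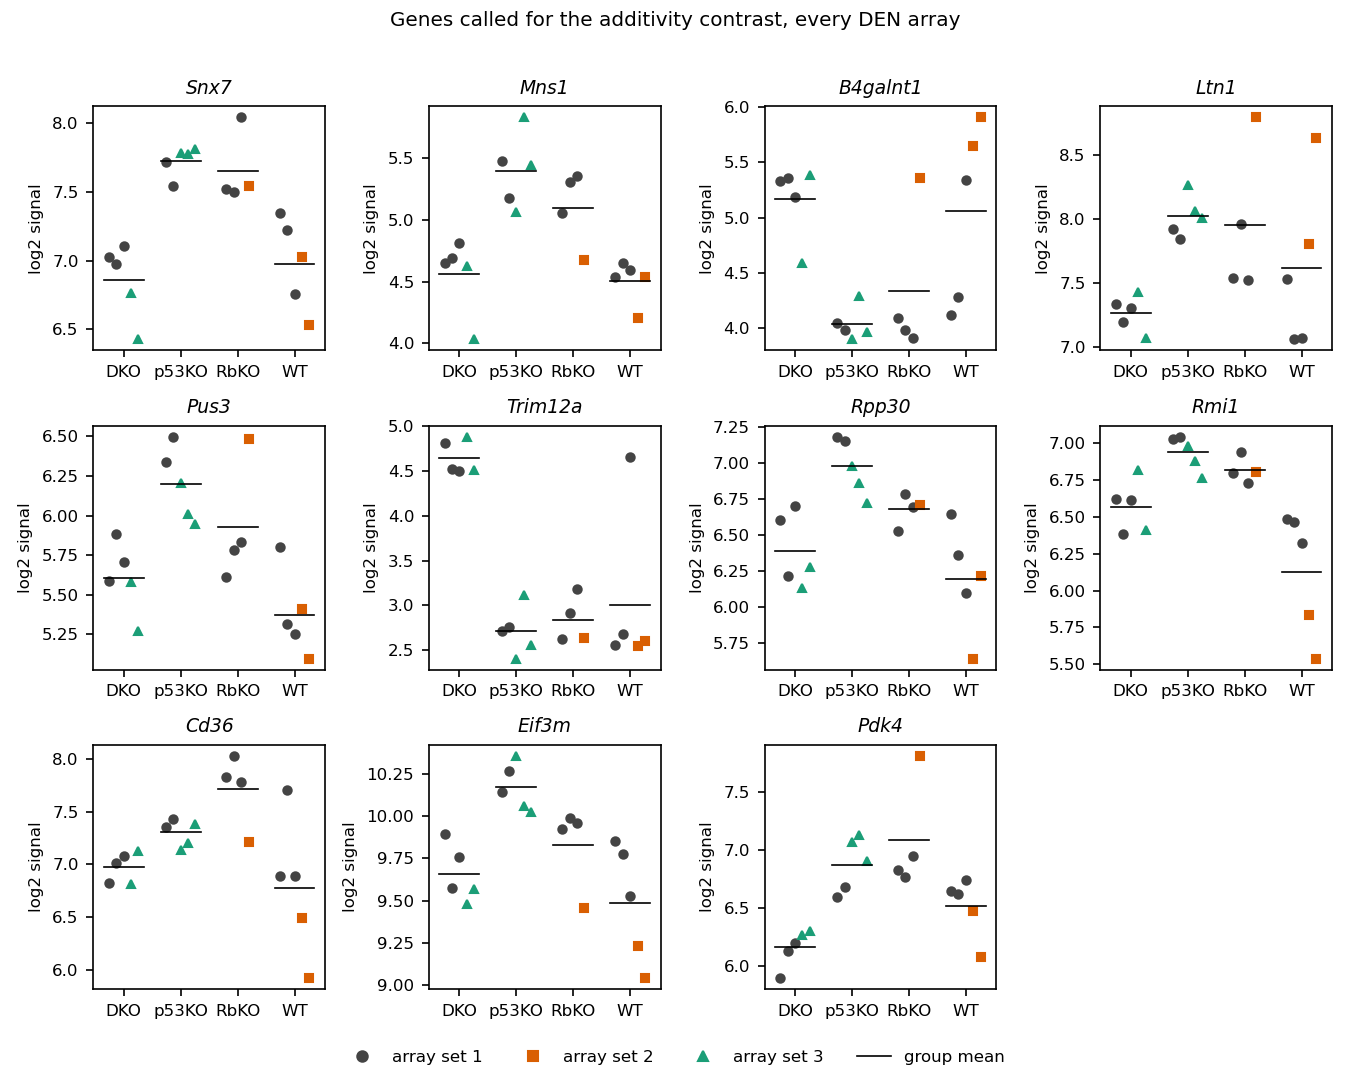
Log2 signal of the 11 genes called for the additivity contrast on every DEN array, by genotype, with the array set as marker and the group mean as a line. In the genes below 0 other than Rmi1 every p53KO array lies above every DKO array, and the 5 DKO values of Trim12a lie between 4.50 and 4.88.

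Genes next in order of p did not pass the test. The 8 uncalled genes with the smallest p above 0 had limma adjusted p between 0.0574 (Shmt2) and 0.0765 (Gnb2). Phlda1, a pleckstrin homology-like gene, was at 1.37 (SE 0.29), Glt1d1 at 1.05 (SE 0.23), the tetherin gene Bst2 at 1.04 (SE 0.23) and Os9, a lectin of protein degradation in the endoplasmic reticulum, at 1.02 (SE 0.23). The ribosomal protein gene Rps3a1 was at 1.01 (SE 0.21), the mitochondrial serine hydroxymethyltransferase gene Shmt2 at 0.93 (SE 0.19), the zinc finger gene Zfp423 at 0.88 (SE 0.18) and the G protein subunit gene Gnb2 at 0.85 (SE 0.19). Set 1 gave 0.48 for Rps3a1 and 0.45 for Gnb2, against 1.71 and 1.54 in sets 2 and 3. Just inside the threshold were Eif3m and Pdk4. Just outside were 4930503L19Rik at -1.09 (limma adjusted p = 0.0521) and Armcx4 at -1.09 (limma adjusted p = 0.0574).

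In set 1 alone mostly other genes were called. There were 33, or 0.207% of those tested, with 23 above 0 and 10 below, and 19 of the 33 had the same sign in sets 2 and 3. B4galnt1, Mns1 and Rmi1 were the 3 also called over the 19 arrays. The number of genes called for the additivity contrast within array set 1 turned on single arrays, running from 0 to 276 when 1 array was left out. There were 0 without DKO replicate 1, either p53KO array, RbKO replicate 1 or RbKO replicate 2, and 276 without WT replicate 1. The set 1 calls named next were chosen after their values were seen. Zbp1, an interferon-induced sensor of nucleic acids, had set 1 log2 signals of 5.75, 5.67 and 5.68 in DKO, 4.58 and 4.71 in p53KO, 5.17, 5.20 and 4.84 in RbKO, with 5.32, 5.29 and 5.56 in WT. The p53KO arrays were the lowest and the DKO arrays the highest. The set 1 contrast of Zbp1 was 1.37 (SE 0.19, limma adjusted p = 0.0244), against 0.16 in sets 2 and 3. Rxra, the common partner of liver nuclear receptors, had 6.89, 7.05 and 6.89 in DKO, 6.45 and 6.31 in p53KO, 6.84, 6.79 and 6.72 in RbKO, with 7.27, 7.14 and 7.22 in WT. Again p53KO was lowest, and the set 1 contrast of Rxra was 0.99 (SE 0.16, adjusted p = 0.0416), against 0.0053 in sets 2 and 3.

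F12 (clotting factor XII) and Ggcx (the carboxylase that activates vitamin K-dependent clotting factors) were also called above 0 in set 1. Set 1 log2 signals of F12 were 7.42, 7.78 and 7.34 in DKO, 6.94 and 6.99 in p53KO, 7.13, 7.29 and 7.35 in RbKO, with 7.69, 7.79 and 7.86 in WT. Those of Ggcx were 5.82, 6.39 and 6.02 in DKO, 5.71 and 5.44 in p53KO, 5.68, 5.75 and 5.58 in RbKO, with 6.35, 6.22 and 6.44 in WT. In both genes every single-knockout array of set 1 was below every WT array. The set 1 contrast was 1.08 for F12 and 1.17 for Ggcx (limma adjusted p = 0.0485 each), against 0.58 and -0.26 in sets 2 and 3. Gipc2, a trafficking adaptor gene, had 4.30, 4.11 and 3.93 in DKO, 5.49 and 5.59 in p53KO, 6.65, 6.21 and 6.14 in RbKO, with 6.13, 5.33 and 5.38 in WT. DKO was below all other arrays of set 1, and the contrast of Gipc2 was -2.15 (SE 0.29, adjusted p = 0.0244) there and -0.56 in sets 2 and 3.

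Some set 1 calls lie near each other in the RefSeq gene order. Os9, B4galnt1, Shmt2 and Lrp1 lie within a stretch of 29 genes on chromosome 10. The stretch was drawn after the values were seen, from Os9 to Lrp1, so its 4 calls among 21 genes tested, beside 0.207% of all genes, follow from how it was drawn. The median set 1 contrast of the 21 was 0.12, and 12 were above 0. Os9 had log2 signals of 7.54, 7.54, 7.35, 7.15 and 6.91 in DKO and 6.67, 6.48, 6.97, 7.04 and 6.95 in p53KO. It had 6.94, 7.05, 6.83 and 6.97 in RbKO and 7.22, 7.09, 7.78, 7.78 and 7.86 in WT, and the WT arrays high for B4galnt1, replicates 3 to 5, were also the high ones for Os9. Lrp1, a hepatocyte receptor for remnant lipoproteins, was at 1.07 (SE 0.20) in set 1 and 0.68 (SE 0.24, limma adjusted p = 0.176) over the 19 arrays.

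Zfp949 and the small nucleolar RNA host gene Snhg5 lie on chromosome 9 with 3 genes between them, and both were called in set 1. Zfp949 had log2 signals of 8.57, 9.04, 8.68, 8.34 and 8.48 in DKO and 6.27, 5.94, 8.28, 8.32 and 8.32 in p53KO. It had 7.17, 7.78, 7.93 and 8.84 in RbKO and 7.21, 7.28, 8.19, 8.26 and 8.01 in WT. The 2 p53KO arrays of set 1 were the lowest of all, while the 3 of set 3 were just below the DKO arrays of that set. The contrast of Zfp949 was 2.60 (SE 0.37) in set 1 and -0.60 in sets 2 and 3, and the difference between sets was called (limma adjusted p = 0.00162). Snhg5 was at -1.25 (SE 0.21) in set 1 and -0.33 in sets 2 and 3. The strain label names 2 strains, and whether linked alleles differ between these animals was not tested.

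Sets 2 and 3 gave values that were only weakly related to those of set 1. They called 1032 genes (6.47%), 857 of them below 0, and the difference between set 1 and sets 2 and 3 was called for 1044 genes (6.55%). Across the 15951 genes the values of set 1 and of sets 2 and 3 had a Pearson r of 0.145, and 54.9% of genes had the same sign, with genes not independent of each other. All 11 genes called over the 19 arrays, whose choice used both, had the same sign in both. Of these, 8 were called from sets 2 and 3. Without RbKO replicate 4, which leaves set 2 with WT arrays only, Snx7 and Mns1 were the 2 genes called. The unadjusted counts were then 777 below 0 (4.87%) and 546 above 0 (3.42%). In set 1 they were 1094 below 0 (6.86%) and 1266 above 0 (7.94%).

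**Figure D2:**
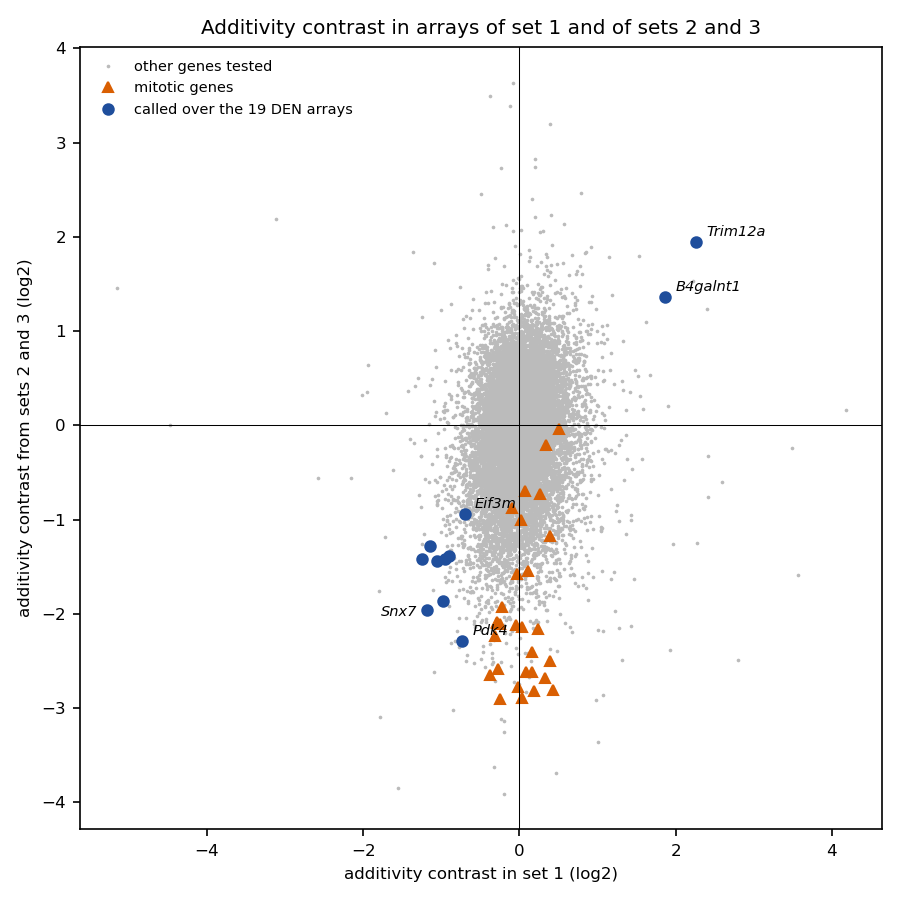
Additivity contrast of every gene tested in set 1 (x axis, log2) and from sets 2 and 3 (y axis, log2), with the 11 called genes as circles and the 29 mitotic genes as triangles. The called genes share a sign on both axes, while the mitotic genes have a median of -2.14 along y and of 0.04 along x.

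Mitotic genes parted most clearly between the sets. Of 29 tested, 0 were called over the 19 arrays, but 22 lay below 0 and 0 above 0 at an unadjusted p under 0.05, against 9.99% and 6.14% of all genes, and the median contrast was -0.79. In set 1 the median was 0.04, with 0 below 0 and 2 above 0, against 6.86% and 7.94% of all genes. From sets 2 and 3 it was -2.14, and the difference between sets was called for 23 of the 29. Without RbKO replicate 4 the median was -0.26, with 5 below 0.

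The array levels show where the sets parted. The mean log2 signal over the mitotic genes was 6.77, 6.69, 6.96, 6.79 and 6.64 in DKO and 6.43, 6.18, 6.79, 6.94 and 6.92 in p53KO. It was 6.56, 6.45, 6.72 and 6.64 in RbKO and 6.03, 6.12, 6.20, 4.85 and 4.83 in WT. RbKO replicate 4 of set 2 lay among the RbKO arrays of set 1, whereas WT replicates 4 and 5 of set 2 were far below the WT arrays of set 1. The 3 p53KO arrays of set 3 were also above the 2 of set 1. Without DEN the mean was 5.90, 5.88 and 6.25 in DKO and 5.02, 5.41 and 5.49 in WT, so that the DEN WT arrays of set 2 were below every untreated array as well.

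Prc1, Ndc80 and Tpx2, which bundle spindle microtubules, tie them to chromosomes and nucleate them, had the smallest p among the mitotic genes. Ndc80 had log2 signals of 7.50, 7.32, 7.52, 7.17 and 6.98 in DKO and 6.84, 6.93, 7.18, 7.19 and 7.37 in p53KO. It had 6.95, 6.88, 7.08 and 6.89 in RbKO and 5.78, 6.17, 6.41, 4.88 and 5.07 in WT. Every knockout array, single or double, was above every WT array, and in set 1 the DKO arrays were above both single knockouts. The contrast of Ndc80 was -0.98 (SE 0.25, limma adjusted p = 0.0911), and -0.29 in set 1. That of Prc1 was -1.18 (SE 0.29, adjusted p = 0.0905), and -0.27 in set 1. That of Tpx2 was -0.90 (SE 0.23, adjusted p = 0.099), and -0.23 in set 1.

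DNA replication genes under E2F control had 0 of 29 called, with 11 below 0 and 0 above 0 at an unadjusted p under 0.05. Their median contrast was -0.31, with -0.11 in set 1 (2 below 0) and -0.27 without RbKO replicate 4 (7 below 0). The mean log2 signal over these genes was 6.30, 6.24, 6.42, 6.26 and 6.20 in DKO and 6.25, 6.05, 6.42, 6.48 and 6.34 in p53KO. It was 6.37, 6.28, 6.44 and 6.07 in RbKO and 5.97, 6.13, 6.13, 5.57 and 5.37 in WT. The knockout groups overlapped with each other, and the WT arrays of set 2 were the lowest of the DEN arrays.

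Prim1, the catalytic subunit of primase, had the smallest p of the replication genes. Its log2 signal was 8.13, 8.07, 8.35, 8.49 and 7.95 in DKO and 7.99, 8.26, 8.51, 8.44 and 8.46 in p53KO. It was 8.23, 8.18, 8.38 and 8.90 in RbKO and 7.48, 7.46, 7.67, 7.16 and 6.26 in WT. The 3 knockout groups overlapped, and all their arrays lay above all WT arrays. The contrast of Prim1 was -1.27 (SE 0.29, limma adjusted p = 0.0765), and -0.67 in set 1, with a called difference between sets (limma adjusted p = 0.0202). The helicase subunit gene Mcm4 was at -0.81 (SE 0.20, adjusted p = 0.0897) and -0.59 in set 1, and the clamp loader gene Rfc4 at -0.98 (SE 0.26, adjusted p = 0.099) and -0.39 in set 1.

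Cyclins, their kinases and inhibitors had 0 of 18 called, with 7 below 0 and 0 above 0 at an unadjusted p under 0.05 and a median of -0.21, or -0.11 with 1 below 0 in set 1. Ccne2, a cyclin E that drives entry into S phase, had log2 signals of 7.00, 6.74, 7.17, 7.12 and 6.57 in DKO and 7.02, 6.88, 7.05, 6.82 and 6.63 in p53KO. It had 6.92, 7.13, 7.15 and 7.41 in RbKO and 6.15, 6.27, 6.41, 4.95 and 5.14 in WT. As for Prim1, the knockout groups overlapped and all lay above WT. The DKO minus WT difference of Ccne2 was 0.94, against 2.20 for the sum of the single effects, and the contrast was -1.26 (SE 0.28, limma adjusted p = 0.0744), or -0.77 in set 1. The kinase inhibitor gene Cdkn2c was at -0.68 (SE 0.22, adjusted p = 0.15). Ccna2, the cyclin of S phase and mitosis, was at -0.96 (SE 0.35, adjusted p = 0.182), with -0.0017 in set 1 and -2.75 in sets 2 and 3, a called difference (limma adjusted p = 0.000142).

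**Figure D3:**
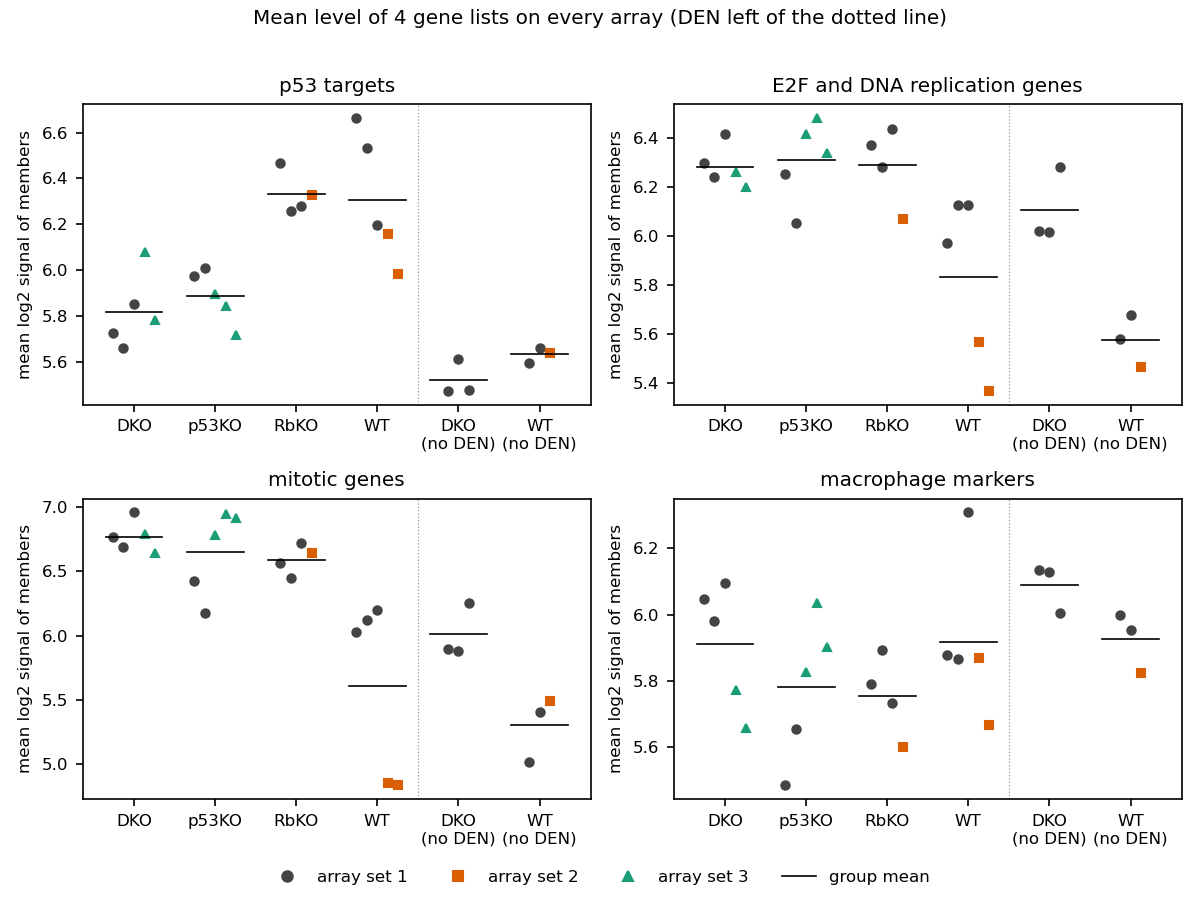
Mean log2 signal over 4 gene lists on every array, with DEN genotypes first and untreated arrays after them, the array set as marker and the group mean as a line. WT replicates 4 and 5 of set 2 have 4.85 and 4.83 for the mitotic genes, against 6.03 to 6.20 on the WT arrays of set 1, and the p53 targets are lower in DKO and p53KO than in RbKO.

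Rb relatives and E2F factors had 0 of 13 called, with 4 below 0 and 0 above 0 at an unadjusted p under 0.05 over the 19 arrays, and 0 of 13 in either direction in set 1. Their median was -0.27, or 0.02 in set 1. Rbl1, the Rb relative p107, had log2 signals of 6.36, 6.00, 6.36, 6.37 and 5.53 in DKO and 5.72, 5.64, 6.35, 6.11 and 6.29 in p53KO. It had 6.31, 6.39, 6.33 and 6.50 in RbKO and 5.44, 5.66, 5.82, 4.98 and 4.54 in WT. All RbKO arrays were above all WT arrays, and the 2 p53KO arrays of set 1 lay among the WT arrays of that set. The contrast of Rbl1 was -0.89 (SE 0.28, limma adjusted p = 0.142), and -0.14 in set 1. E2f5 was at -0.54 (SE 0.21, adjusted p = 0.206), and E2f8, a repressor of the family, at -0.70 (SE 0.28, adjusted p = 0.217) and 0.09 in set 1.

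The p53 targets had small contrasts. Of 27 tested, 0 were called, and 3 lay below 0 and 2 above 0 at an unadjusted p under 0.05, near the shares of all genes. The median was -0.11, with -0.20 in set 1 and 0.03 without RbKO replicate 4. Their median difference from WT was -0.55 in DKO, -0.46 in p53KO but 0.07 in RbKO, beside -0.03, -0.01 and -0.04 over all genes. The mean log2 signal was 5.72, 5.66, 5.85, 6.08 and 5.78 in DKO and 5.97, 6.01, 5.89, 5.84 and 5.72 in p53KO. It was 6.47, 6.26, 6.28 and 6.33 in RbKO and 6.67, 6.53, 6.19, 6.16 and 5.98 in WT. DKO and p53KO overlapped, and all RbKO arrays were above both.

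Endothelial markers were also low in DKO and p53KO livers. The median difference from WT of the 19 markers was -0.49 in DKO, -0.41 in p53KO and -0.14 in RbKO. Their mean log2 signal was 5.48, 5.48, 5.48, 5.17 and 5.26 in DKO and 5.45, 5.30, 5.57, 5.53 and 5.53 in p53KO. It was 5.85, 5.76, 5.81 and 5.63 in RbKO and 5.83, 6.04, 5.78, 5.88 and 6.00 in WT. All arrays without p53 were below all RbKO and WT arrays. The stellate cell and matrix markers had medians of -0.20 in DKO, -0.21 in p53KO and -0.05 in RbKO. The part of these cells in the levels of the p53 targets was not tested.

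Ccng1, the cyclin G1 gene and a p53 target, was chosen after its values were seen. On the log2 scale it had 8.77, 8.73, 9.15, 9.86 and 9.11 in DKO and 9.18, 9.49, 9.01, 8.92 and 8.76 in p53KO. It had 10.12, 9.88, 9.88 and 10.43 in RbKO and 10.05, 10.04, 9.69, 9.94 and 9.94 in WT. Every RbKO array was above every array without p53, and DKO replicate 4 was the only array without p53 within the WT range. The contrast of Ccng1 was -0.11 (95% interval -0.66 to 0.43, limma adjusted p = 0.877). In set 1 it was -0.49 (SE 0.22, adjusted p = 0.322), and 0.09 in sets 2 and 3. Phlda3, an inhibitor of Akt chosen in the same way, was at 0.32 (SE 0.25, adjusted p = 0.546). The members with the smallest p were Polk, a polymerase that copies past DNA lesions, at -0.57 (SE 0.19, adjusted p = 0.164), Sertad1 at 0.61 (SE 0.24, adjusted p = 0.224) and the death receptor gene Fas at -0.56 (SE 0.22, adjusted p = 0.226).

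Regulators around p53 had 0 of 14 called, with 5 below 0 and 0 above 0 at an unadjusted p under 0.05 and a median of -0.33, or -0.19 with 1 below 0 in set 1. The damage kinase gene Atr had log2 signals of 6.21, 6.08, 6.27, 6.94 and 6.42 in DKO and 6.48, 6.43, 6.97, 6.64 and 6.49 in p53KO. It had 6.53, 6.70, 6.71 and 7.36 in RbKO and 6.31, 6.22, 6.04, 6.22 and 5.97 in WT. Both single knockouts were above every WT array, and DKO overlapped with all 3 other genotypes. The contrast of Atr was -0.85 (SE 0.21, limma adjusted p = 0.0897), and -0.72 in set 1. The checkpoint kinase gene Chek1 was at -1.05 (SE 0.30, adjusted p = 0.114), and -0.52 in set 1. Atm, the kinase of double-strand breaks, was at -0.89 (SE 0.27, adjusted p = 0.133), with 0.0023 in set 1 and a called difference between sets (limma adjusted p = 0.00043).

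DNA repair genes had 0 of 21 called, with 7 below 0 and 1 above 0 at an unadjusted p under 0.05 and a median of -0.35, or -0.12 with 1 below 0 and 1 above 0 in set 1. Brca2, a gene of recombination repair, was at -0.92 (SE 0.26, limma adjusted p = 0.116). Brca2 had -0.30 in set 1 and -1.92 from the other sets, a called difference. Rad18, a ubiquitin ligase of lesion bypass, was at -0.77 (SE 0.23, adjusted p = 0.123). Rad18 had -0.30 in set 1 and -1.53 from the other sets, a difference that was not called. Blm, the helicase partner of Rmi1, was at -0.62 (SE 0.22, adjusted p = 0.182), and -0.04 in set 1, with a called difference between sets (limma adjusted p = 0.00735).

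Drug-metabolizing genes under the receptor CAR and its relatives had 0 of 19 called, with 4 below 0 and 2 above 0 at an unadjusted p under 0.05 and a median of -0.28, or -0.22 with 6 below 0 and 2 above 0 in set 1. Cyp2c55, a cytochrome P450, had log2 signals of 6.81, 6.71, 6.78, 7.08 and 7.09 in DKO and 7.76, 7.65, 7.72, 7.68 and 7.49 in p53KO. It had 7.14, 6.87, 7.11 and 6.01 in RbKO and 6.13, 7.48, 6.58, 5.27 and 5.30 in WT. Every p53KO array was above every other DEN array. The contrast of Cyp2c55 was -1.18 (SE 0.25, limma adjusted p = 0.0619), with -1.25 in set 1 and -1.26 in sets 2 and 3.

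Cyp2b10, the classical CAR target, had log2 signals of 4.83, 5.03, 4.18, 4.83 and 4.73 in DKO and 6.80, 7.17, 6.04, 6.27 and 6.48 in p53KO. It had 5.16, 4.93, 4.93 and 4.11 in RbKO and 6.56, 5.03, 5.21, 3.92 and 4.89 in WT. WT replicate 1 lay among the p53KO arrays, and all other arrays were below them. The contrast of Cyp2b10 was -1.39 (SE 0.36, limma adjusted p = 0.099), and that of Cyp3a13 was 1.28 (SE 0.45, adjusted p = 0.177). Contrasts of the CAR list ran from -2.83, the lowest of all genes tested, to 1.28, and the member at -2.83 was not called. Slco1a1, an importer of organic anions from the list of plasma protein and bile acid genes, had 6.48, 7.00, 7.44, 6.72 and 6.42 in DKO and 5.68, 5.07, 4.92, 4.69 and 5.61 in p53KO. It had 6.38, 7.32, 7.73 and 7.55 in RbKO and 6.26, 7.55, 7.39, 6.26 and 6.91 in WT. Here p53KO was below every other DEN array, and the contrast of Slco1a1 was 1.19 (SE 0.41, adjusted p = 0.165).

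Nrf2 targets, which answer reactive compounds, had 0 of 17 called, with 1 below 0 and 2 above 0 at an unadjusted p under 0.05 and a median of 0.12. Their median difference from WT was -0.64 in DKO, -0.43 in p53KO and -0.30 in RbKO. Gstp1, a glutathione transferase, had log2 signals of 10.05, 9.82, 9.74, 9.52 and 9.74 in DKO and 9.57, 10.07, 9.59, 9.78 and 9.34 in p53KO. It had 10.62, 10.25, 10.61 and 9.19 in RbKO and 10.89, 11.40, 11.17, 10.24 and 10.56 in WT. DKO and p53KO overlapped and were below every WT array. The contrast of Gstp1 was 0.88 (SE 0.21, limma adjusted p = 0.0861), beside 0.52 (SE 0.19, adjusted p = 0.185) for Gstm1 and -0.62 (SE 0.24, adjusted p = 0.215) for Ugdh.

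Metabolic lists were mixed. PPARalpha and ketogenesis genes had 1 of 17 called (Pdk4), with 3 below 0 and 1 above 0 at an unadjusted p under 0.05, and a median of -0.19, or 0.18 in set 1. Slc25a20, the carnitine carrier of mitochondria, was at -0.49 (SE 0.14, limma adjusted p = 0.126). Lipogenesis genes had 0 of 18 called and 0 in either direction at an unadjusted p under 0.05 over the 19 arrays, but 8 above 0 and 1 below 0 in set 1. Growth hormone and IGF genes had 0 of 16 called, with 1 below 0 and 3 above 0 over the 19 arrays, and 1 below 0 and 8 above 0 in set 1. Their median was 0.27, with 0.65 in set 1 and -0.27 in sets 2 and 3. The fetal growth factor gene Igf2 was at -1.38 (SE 0.45, adjusted p = 0.152), and its binding protein genes Igfbp2 and Igfbp3 were at 0.74 (SE 0.33, adjusted p = 0.271) and 0.54 (SE 0.25, adjusted p = 0.277).

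Acute phase genes had 0 of 20 called, with 0 below 0 and 3 above 0 at an unadjusted p under 0.05 and a median of 0.24. Saa3, an inducible serum amyloid, had log2 signals of 8.88, 8.70, 9.01, 8.67 and 8.56 in DKO and 8.24, 9.23, 7.44, 7.10 and 6.98 in p53KO. It had 6.28, 6.77, 6.89 and 4.73 in RbKO and 8.64, 6.68, 8.85, 5.74 and 4.40 in WT. DKO arrays were high and close together and lay above every RbKO array, while WT spread from the lowest value of all to the DKO range. The contrast of Saa3 was 1.87 (SE 0.52, limma adjusted p = 0.11), and that of the haptoglobin gene Hp was 0.45 (SE 0.16, adjusted p = 0.177).

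Interferon-stimulated genes had 0 of 18 called, with 0 below 0 and 6 above 0 at an unadjusted p under 0.05. Their median was 0.24, with 0.46 in set 1 and 0.03 in sets 2 and 3. Ifit3, an interferon-induced antiviral protein, had log2 signals of 7.35, 7.07, 7.90, 6.39 and 6.14 in DKO and 5.28, 5.42, 5.84, 5.55 and 5.22 in p53KO. It had 5.82, 6.14, 5.80 and 5.25 in RbKO and 5.11, 5.71, 7.35, 6.40 and 5.71 in WT. DKO was above p53KO on every array, and WT replicate 3, the high one for Trim12a and Trim30d, was the highest WT array. The contrast of Ifit3 was 1.75 (SE 0.46, limma adjusted p = 0.099). That of Ifi27l2a was 0.99 (SE 0.30, adjusted p = 0.134) and that of Oasl2 0.81 (SE 0.33, adjusted p = 0.229). In set 1 these contrasts were 2.22, 1.54 and 1.32, against 1.53, 0.31 and 0.37 in sets 2 and 3.

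Macrophage markers had the highest list median, 0.40, with 0.73 in set 1, 0.23 in sets 2 and 3 and 0.40 without RbKO replicate 4. Of 16 tested, 0 were called, and 0 lay below 0 and 6 above 0 at an unadjusted p under 0.05 over the 19 arrays. At that p, set 1 had 0 below and 10 above, and the fit without RbKO replicate 4 had 0 below and 2 above. From sets 2 and 3, which hold 1 RbKO array, members lay on both sides of 0. The mean log2 signal over the 16 was 6.05, 5.98, 6.09, 5.77 and 5.66 in DKO and 5.48, 5.65, 5.83, 6.04 and 5.90 in p53KO. It was 5.79, 5.89, 5.73 and 5.60 in RbKO and 5.88, 5.87, 6.31, 5.87 and 5.67 in WT. In set 1 DKO was above both single knockouts, and in set 3 DKO was below p53KO. In whole liver, fewer cells of a type and less RNA per cell cannot be told apart. Cd5l, secreted by macrophages, was at 0.91 (SE 0.28, limma adjusted p = 0.133), the scavenger receptor gene Marco at 0.82 (SE 0.31, adjusted p = 0.201) and the complement gene C1qc at 0.67 (SE 0.25, adjusted p = 0.184).

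The markers of the other liver cells had median contrasts near 0, at 0.01 for endothelium, 0.10 for stellate cells and matrix, 0.08 for lymphocytes, 0.09 for erythroid cells, -0.07 for neutrophils and 0.02 for cholangiocytes, with 0 called in each. Apoptosis genes had a median of 0.02, ER stress and ATF4 genes 0.12, cytokines and chemokines 0.10, cholesterol synthesis genes -0.19, gluconeogenesis and amino acid catabolism genes 0.15, plasma protein and bile acid genes 0.07, fetal liver genes -0.16 and circadian genes 0.10. In each of these lists 0 members were called.

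**Figure D4:**
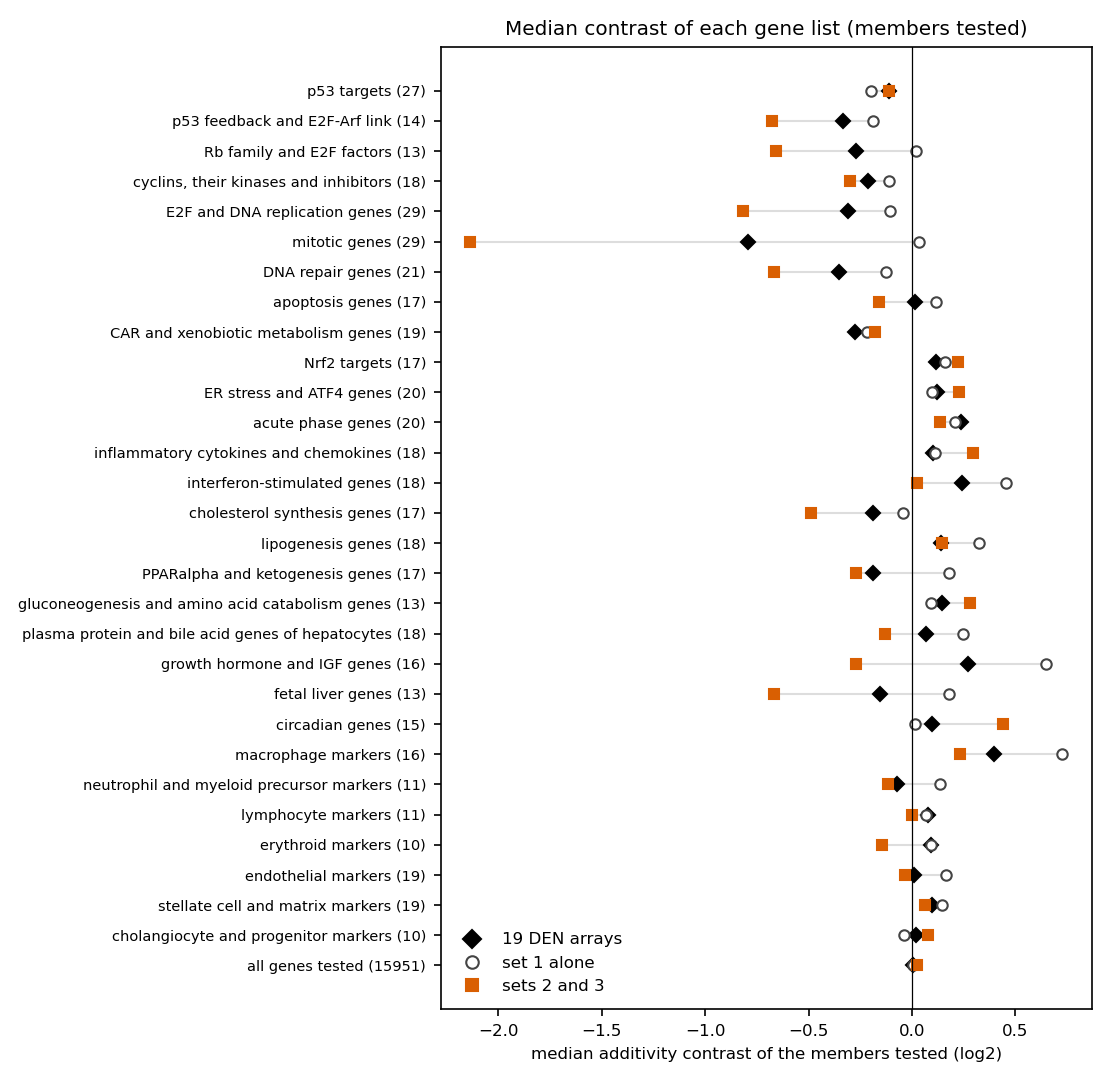
Median additivity contrast (log2) of the members tested in each of 29 gene lists and in all genes, over the 19 DEN arrays, in set 1 and from sets 2 and 3. Mitotic genes have 0.04 in set 1 and -2.14 in sets 2 and 3, while the p53 targets lie between -0.20 and -0.11 in all 3.

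Properties of the arrays moved with some of these values. Xist, the RNA of the inactive X chromosome, lay between 9.70 and 10.35 on DKO replicates 3 and 5, p53KO replicates 1 and 5 and RbKO replicates 2 and 3, and between 3.38 and 3.92 on the 5 DEN WT arrays. With the Xist signal as a covariate, limma called 4 genes. From sets 2 and 3 the median contrast in 4 equal bins of gene span was 0.21, 0.09, -0.08 and -0.21 from shortest to longest, whereas in set 1 it was 0.01, -0.01, -0.02 and 0.05. As all 5 DEN WT arrays were low in Xist, the covariate fit could not fully part Xist from genotype. The part of gene span in the contrasts was not tested.

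The number of calls turned on single arrays. Leaving out each of the 19 in turn gave between 1 and 62 calls. There were 62 without WT replicate 2, 55 without WT replicate 1, 53 without DKO replicate 4 and 23 without DKO replicate 3. There was 1, Snx7, without DKO replicate 5, p53KO replicate 1, RbKO replicate 2 or RbKO replicate 3. The sign of the contrast of all 11 called genes was the same in every one of these fits. These genes were chosen by their contrast over the same arrays, so the shared sign is no separate support. The calls of Trim12a, B4galnt1, Pus3, Ltn1, Rpp30, Rmi1, Pdk4, Cd36 and Eif3m each ended without between 9 and 15 of the arrays, RbKO replicate 4 among them, with limma adjusted p up to 0.222.

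**Figure D5:**
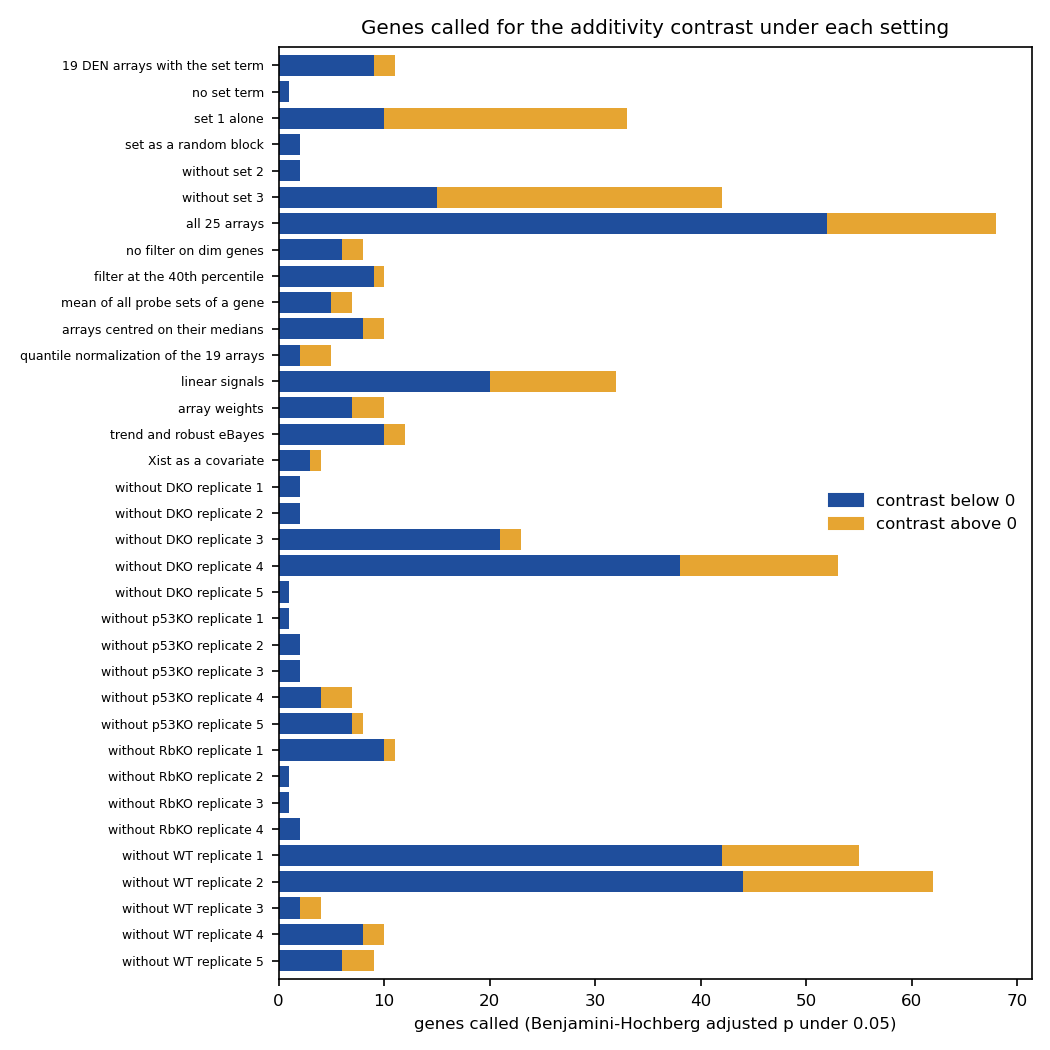
Number of genes called for the additivity contrast (x axis) under each setting, with calls below 0 and above 0 drawn apart. The 19 arrays with the set term give 11, set 1 alone 33, and fits without 1 array between 1 and 62 (the fit of sets 2 and 3 alone, with 1032 calls, is not drawn).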

How the data were processed

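Per the labels, RNA from frozen livers was amplified (WT-Ovation Pico), biotin-labelled and read on 1-colour arrays. The authors deposited log2 signals per probe set, made with RMA in Affymetrix Expression Console 1.1, per the submitters' processing notes. Whether all 25 arrays were normalized together, the genome build and the probe annotation version are not given in the sources used here.

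Of 35555 probe sets, the probe table listed 23409, 21789 of them with 1 symbol and 1620 with several, which were left out. Each gene kept its probe set with the highest mean. The 20th percentile of the means (log2 3.33) removed 3987 of 19938 genes and left 15951. Signals were fitted with limma 3.58.1 in R 4.3.3 (lmFit and eBayes) with 4 genotype means and the array set, leaving 13 residual degrees of freedom (7 in set 1, 4 in sets 2 and 3). Tests were two-sided, with Benjamini-Hochberg adjustment over all genes tested. The code was tested on simulated data. Alternatives changed the set term, the arrays, the filter, the probe set rule, the normalization, the scale and the model.

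Members and lists were chosen with earlier results of these data known. Genes are named if called, next in order of p up to 10 a direction, among the 3 smallest p of a list, or next to the threshold, with exceptions said in the text. No columns were left unassigned.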

Additional observations from a re-analysis of the deposited data

Results flagged for a closer look

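For each of the 11 called genes the effect of Rb loss differed with p53 status by the test of the contrast itself. That test chose these genes, so the values below restate it and add no support. For Trim12a all single-knockout arrays, and all DEN WT arrays but replicate 3, were below the cutoff of the filter on dim genes. The effect without p53 minus the effect with p53 was 2.19 for Trim12a and 1.64 for B4galnt1. It was -1.53 for Snx7, -1.40 for Mns1, -1.25 for Pdk4, -1.24 for Pus3, -1.23 for Ltn1, -1.15 for Cd36, -1.10 for Rpp30, -1.002 for Rmi1 and -0.81 for Eif3m.

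Among 73 genes examined in the 4 DEN genotypes, 25 of 292 gene and group pairs (8.56%) had an array far from the others of its group. Chance flags about 5% of groups of like arrays, but these genes were chosen with their values known and the groups mix array sets, so the shares cannot be set against each other. Of the 25, 11 were RbKO replicate 4, the only RbKO array of set 2, and 14 were other arrays. It was high for B4galnt1 (5.36), Glt1d1 (4.85), Pdk4 (7.81) and Atm (5.78). It was low for Shmt2 (5.80), Rps3a1 (9.87), Eif3m (9.45), Fas (7.85), Cdkn2c (5.02), Hp (10.5) and Cd5l (5.32). The other RbKO arrays that stood out were replicate 3 for Snx7 (8.05) and replicate 2 for Polk (7.17).

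Among DKO arrays, replicate 4 stood apart for B4galnt1 (4.59) and Armcx4 (6.73), replicate 5 for Mns1 (4.03) and Cd5l (5.99), and replicate 3 for E2f5 (4.69). Among p53KO arrays, replicate 1 was low for Hp (11.3) and replicate 3 for F12 (6.61). Among WT arrays, replicate 3 was high for Trim12a (4.65) and Trim30d (5.39), replicate 1 for Sertad1 (6.39), and replicate 4 was low for Mns1 (4.20) and replicate 5 for Rb1 (5.04).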

How the results depend on the processing

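The 11 calls became 1 with no set term, 33 in set 1 alone, 1032 from sets 2 and 3 alone, 2 with the set as a random block, 2 without set 2 and 42 without set 3. They became 68 with all 25 arrays, 7 with probe sets averaged per gene, 5 after quantile normalization (2 below 0 and 3 above, against 9 and 2), 32 on linear signals and 4 with Xist as a covariate. Leaving out single arrays gave 1 to 62. The counts were 8 with no filter, 10 with the 40th percentile filter, 10 with centred arrays, 10 with array weights and 12 with trend and robust settings. The sign of the 11 called genes, which were chosen on the same arrays, did not change in any of these fits that measured them. The 33 genes called for the additivity contrast within array set 1 became 258 with trend and robust settings and 0 to 276 when single arrays were left out. The contrast of Rb1 was 0.018 in set 1 and 0.0094 without set 2, and between -0.40 and 0.0094 with single arrays left out. Of 2518 recomputed contrasts of named genes other than Rb1, 2212 kept direction and side of the threshold, 186 lost a call, 112 gained one and 8 changed sign. Those were Atm (0.0023) and E2f8 (0.086) in set 1, Ccng1 (0.090), Ggcx (-0.26) and Zfp949 (-0.60) in sets 2 and 3, and Ccng1 without set 2 (0.028), without p53KO replicate 2 (0.066) and without RbKO replicate 4 (0.028). With single arrays left out, the contrast of Ccng1 ran from -0.38 to 0.066. Of 986 recomputed list medians, 78 moved by over 1 residual SD. The cause of these changes was not tested. With a median distance of 0.40 log2 units to the end of the 95% interval, smaller departures from additivity could not be resolved for a typical gene. No paired analysis was possible because the replicate numbers follow accession order and pair no samples.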
